A study of Arabidopsis thaliana with 8 samples.

Results

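Wild type roots were compared with wild type shoots of Arabidopsis thaliana on whole-genome tiling arrays, which carry probes along the entire genome. The comparison took the 1 array of wild type roots and the 3 arrays of wild type shoots, 4 of the 8 arrays of the series, and used every entry of the deposited value table, averaged by locus, which gave 29920 loci from 30237 entries. All 4 samples were Columbia-0 seedlings of the wild type genotype, 7 days old, raised on vertical plates of PANG2 medium with nitrate, phosphate and sucrose, and divided into roots and shoots at harvest. Each shoot sample pooled 30 shoots and the root sample pooled 90 roots, so that the root pool equals the 3 shoot pools in number and may come from the same seedlings. The study concerns redox control of root growth, and its other 4 arrays hold shoots and roots of the root meristemless1 (rml1) mutant, which carries a defect in the glutathione synthesis gene GSH1. No transgene, reporter or chemical treatment is named for the wild type samples, and each array reads a whole organ with every cell type in it.

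The root takes up water and mineral ions, controls their entry to the vascular core at the endodermis, and extends hairs into the medium. The shoot of a seedling of this age is made up largely of cotyledons, young leaves and hypocotyl, whose cells fix carbon in chloroplasts and exchange gas through stomata beneath a waxy cuticle. Many enzymes needed in both organs are encoded by small gene families with separate leaf and root members.

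Values were normalised log2 intensities, so 1 unit is a 2-fold difference, and a difference is always the root value minus the mean of the 3 shoot arrays. Because the root has 1 array, no test of the root against the shoot was possible that includes the spread between root samples. A locus was called higher or lower in the root when the root value lay outside the range of all 3 shoot arrays and differed from their mean by at least 1 log2 unit. The shoot arrays set the yardstick: their values at a locus spanned a median of 0.26 log2 units, and 931 loci (3.11%) spanned 1 unit or more. By this rule 4129 loci were higher in the root (13.8% of 29920) and 2983 were lower (9.97%). At a difference of at least 2 units, or 4-fold, the counts were 1630 higher (5.45%) and 1560 lower (5.21%), and at 4 units, or 16-fold, 299 and 433. Counted without a minimum size, the root lay above all 3 shoot arrays at 41.2% of loci and below all 3 at 35.4%. The median difference over all loci was 0.02. Across loci, the shoot arrays correlated with each other at Pearson's r of 0.990 to 0.992 and with the root array at 0.8405 to 0.851, which describes these arrays and is not a test. The plot of root against shoot levels shows both tails.

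**Figure D1:**
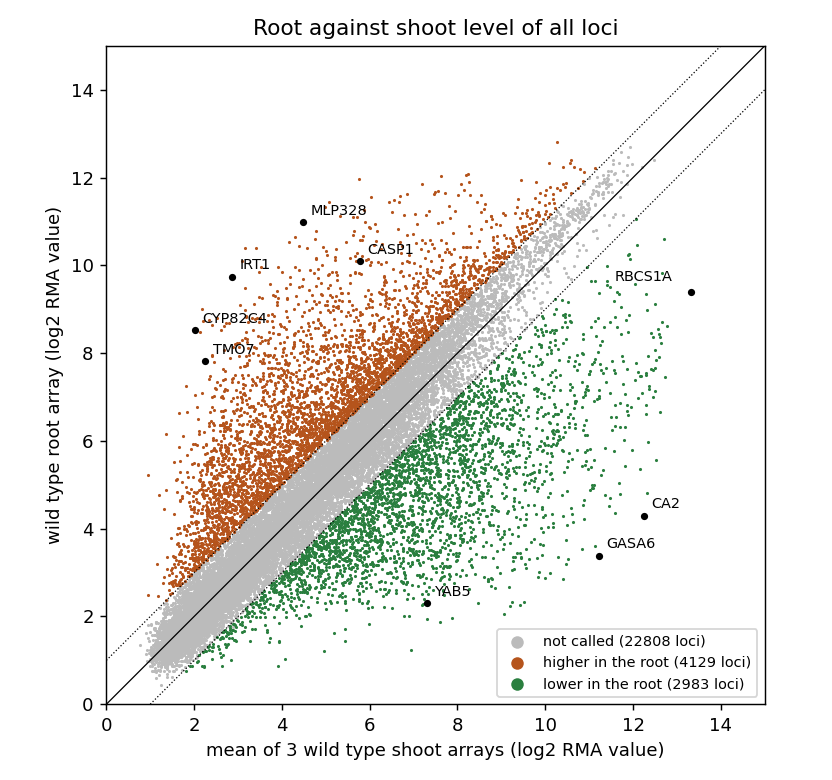
The horizontal axis is the mean of the 3 wild type shoot arrays and the vertical axis the wild type root array, both in log2 units, with 1 point per locus. The solid line marks equal values and the dotted lines a difference of 1 unit, and 4129 loci called higher and 2983 called lower in the root lie outside them.

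The organ labels were checked with marker genes of single cell types. All 7 endodermis markers (CASP1 to CASP5, MYB36 and ESB1) were higher in the root, and their summed level was 32.4 to 33.1 log2 units in the shoot arrays and 58.4 in the root. Of 5 root hair markers 4 were higher, of 3 root cap markers 3 were higher, and of 5 root meristem markers (PLT1, PLT2, SCR, SHR and WOX5) 0 were called. All 9 mesophyll markers, all 4 stomatal markers and all 3 leaf primordium markers were lower in the root, and the 9 mesophyll markers summed to 113.7 to 114.2 in the shoots and 74.7 in the root. None of the 5 shoot meristem markers (STM, CLV3, WUS, CUC1 and CUC2) was called. In whole organs, fewer cells of a type and less RNA per cell cannot be told apart, and this holds for every difference that follows.

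The largest deficits in the root included carbonic anhydrases and a chloroplast complex subunit, and the largest excesses included genes of iron uptake and root hairs. Among loci above the median level in at least 1 organ, the gene with the largest deficit in the root was CA2 (AT5G14740), a beta carbonic anhydrase, which interconverts carbon dioxide and bicarbonate. CA2 read 12.39, 12.23 and 12.15 in the 3 shoot arrays and 4.30 in the root, 248-fold lower. BCA1 (AT3G01500), the chloroplast beta carbonic anhydrase, read 12.37, 12.30 and 12.31 in the shoots and 4.80 in the root, 184-fold lower. For both genes the 3 shoot arrays lay close together and far above the root. GASA6 (AT1G74670), a small gibberellin-regulated peptide, read 11.21, 11.30 and 11.19 in the shoots and 3.39 in the root. XTH6 (AT5G65730), a xyloglucan-remodelling enzyme of the cell wall, read 10.79, 10.04 and 10.36 in the shoots and 2.86 in the root. NdhL (AT1G70760), a subunit of the chloroplast NAD(P)H dehydrogenase complex, read 9.65, 9.31 and 9.35 in the shoots and 2.25 in the root. The remaining 5 of the 10 largest deficits, AT5G48490, AT1G66100, AT1G29660, AT3G05730 and AT1G23130, had differences of -7.53 to -7.22. At all 10 genes the call rule itself places every shoot array above the root value.

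In the other direction, the largest excess in the root was at AT3G01190, with 2.49, 3.69 and 3.31 in the shoots and 10.40 in the root, 150-fold higher. GSTU25 (AT1G17180), a tau class glutathione transferase, read 2.16, 3.93 and 3.19 in the shoots and 10.09 in the root. IRT1 (AT4G19690), the main iron importer of the root epidermis, read 2.49, 2.99 and 3.14 in the shoots and 9.74 in the root, 117-fold higher. The call rule places every shoot array below the root at these genes, and the shoot replicates of GSTU25 differed among themselves. ADF11 (AT1G01750), an actin-depolymerising factor of root hairs, read 2.14, 2.43 and 1.97 in the shoots and 8.99 in the root. CYP82C4 (AT4G31940), a cytochrome P450 of the coumarin pathway used in iron acquisition, read 1.86, 2.15 and 2.03 in the shoots and 8.53 in the root. MLP328 (AT2G01520), a major latex protein-like gene, read 2.48, 5.13 and 5.84 in the shoots and 10.99 in the root, and its first shoot replicate stood apart from the other two. Without that replicate the difference of MLP328 was 5.50 in place of 6.50. The other 4 of the 10, AT4G22666, AT3G09925, AT4G30170 and AT1G52060, had differences of 6.43 to 6.98.

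**Figure D2:**
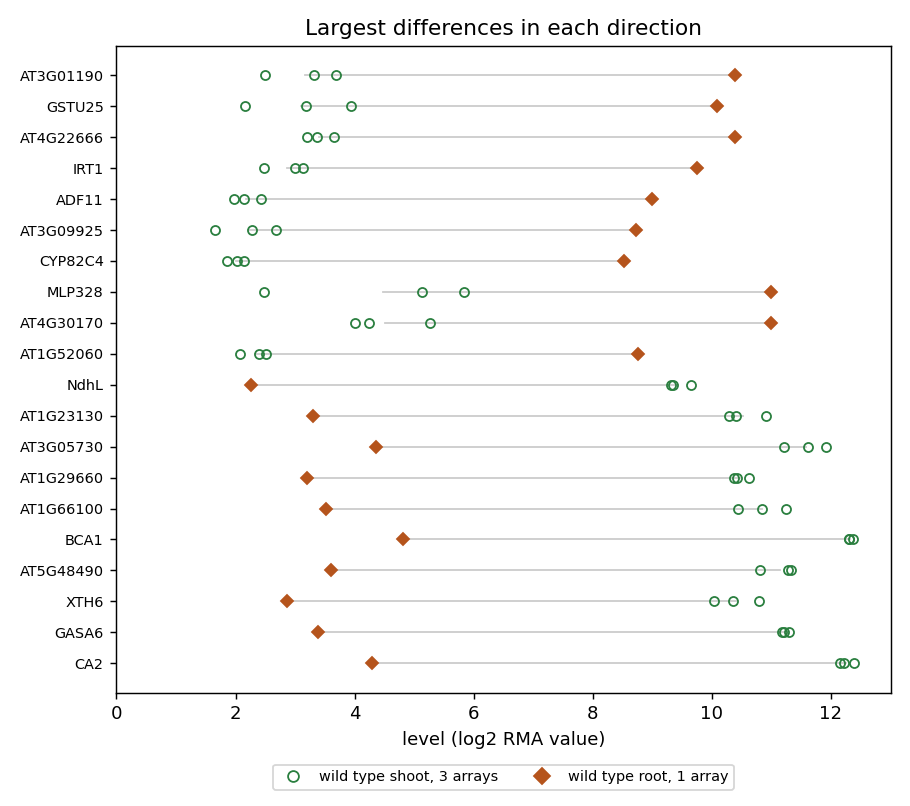
The horizontal axis is the log2 level, open circles are the 3 wild type shoot arrays and diamonds the root array, for the 10 largest differences in each direction. The call rule by which the 20 genes were picked excludes any overlap of the groups. The shoot arrays of MLP328 lie between 2.48 and 5.84.

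Genes of 32 lists (838 measured loci) were then read against the background of 13.8% of loci higher and 9.97% lower. That background is an average over levels, and the share called differed with level. Of the most abundant 10% of loci, 27.01% were called higher and 18.52% lower. Of the least abundant 10%, 0 were called higher and 0.33% lower. A list of abundant genes can therefore exceed the background through its level alone. No background matched for level was computed, so moderate excesses in such lists are not read as enrichment. For the shoot meristem, strigolactone, sugar transport and reference gene lists the shares lay near the background and are no result about those lists. The plot of list members shows the lists in order of their median difference, from the Calvin cycle to the Casparian strip.

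**Figure D3:**
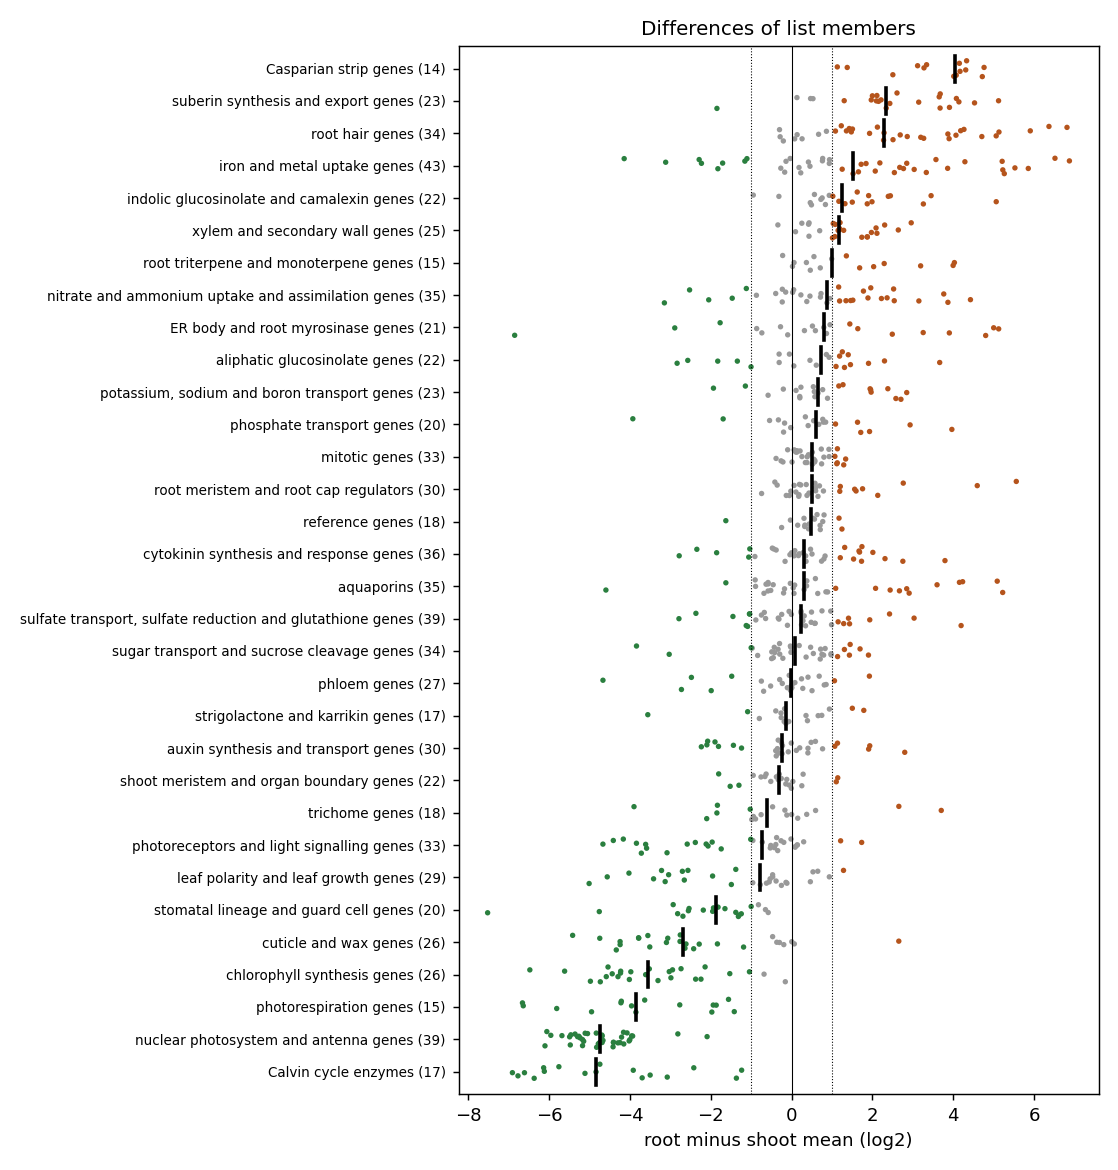
The horizontal axis is the root minus shoot mean difference in log2 units, each point is a gene, coloured when called higher (brown) or lower (green), and the black bar is the list median, with the number of measured genes in brackets. Medians run from -4.84 for Calvin cycle enzymes to 4.04 for Casparian strip genes, and dotted lines mark a difference of 1 unit.

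The nuclear genes of the photosynthetic apparatus were lower in the root without exception among those measured. All 39 photosystem and antenna genes were called lower, each by at least 4-fold, with a median difference of -4.75 against 0.02 over all loci. Their median level was 12.3 to 12.4 in each shoot array and 7.49 in the root. PETE1 (AT1G76100), a plastocyanin that carries electrons between the cytochrome complex and photosystem I, had the largest difference and read 11.12, 11.10 and 11.10 in the shoots and 5.0 in the root. LHCA2 (AT3G61470), an antenna protein of photosystem I, read 12.50, 12.52 and 12.47 in the shoots and 7.13 in the root, 41.1-fold lower. The least affected member, PSBR (AT1G79040), a photosystem II subunit, still read 12.77, 12.68 and 12.66 in the shoots and 10.61 in the root. The size of the deficit therefore ranged from 4.27-fold to 68.8-fold within the list, and LHCA4, another photosystem I antenna gene, lay near the lower end at -2.82.

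The 17 enzymes of the Calvin cycle, which fixes carbon dioxide into sugar phosphates, were all lower, with a median of -4.84. The plastid aldolase FBA1 (AT2G21330) read 11.80, 11.66 and 11.65 in the shoots and 4.79 in the root, 120-fold lower. The Rubisco small subunit RBCS1A (AT1G67090) read 13.35, 13.30 and 13.29 in the shoots and 9.39 in the root, 15.1-fold lower. Transketolase TKL1 and triose phosphate isomerase TPI differed least, by -1.24 and -1.37. Those 2 were the only members of the list under 4-fold. The 15 genes of photorespiration, which recycles the product of Rubisco's oxygenase reaction, were all lower with a median of -3.85. GDCH (AT2G35370), the H protein of glycine decarboxylase, read 10.97, 10.85 and 10.85 in the shoots and 4.23 in the root. GOX1, a glycolate oxidase, differed by -6.64, but its values were identical to those of another entry and cannot be assigned to 1 gene. The catalase CAT2 (AT4G35090), which removes peroxide in photorespiration, differed least, by -1.42.

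Of 26 genes of chlorophyll and tetrapyrrole synthesis, 24 were lower, 0 were higher and 2 were not called, with a median of -3.57. PORC (AT1G03630), a light-dependent protochlorophyllide reductase, read 9.90, 9.80 and 9.72 in the shoots and 3.33 in the root. PORB, its relative, read 7.75, 9.22 and 9.45 in the shoots and 4.07 in the root, and its first shoot replicate was lower than the other two. The members not called were PORA, at -0.68, and HEMA2, a glutamyl-tRNA reductase isoform expressed in roots, at -0.16. The major isoform of the same step, HEMA1, differed by -4.02. Genes encoded in the plastid genome, recognised by their ATCG locus codes, were also low in the root: of 67, 65 were called lower, all 67 lay below every shoot array, and the median difference was -2.89. Of 33 mitochondrial loci (ATMG codes), 4 were called higher and 0 lower, with a median of -0.04. Whether RNA of both organelles was labelled as evenly as nuclear transcripts is not stated in the labels and was not tested.

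The leaf surface was covered by lists for stomata, cuticle and trichomes. Of 20 stomatal lineage and guard cell genes, 17 were lower and 0 were higher, and all 20 lay below every shoot array, with a median of -1.88. BCA1, described above, gave the largest difference of this list and is also abundant in mesophyll. TMM (AT1G80080), a receptor that spaces stomata, read 5.88, 6.21 and 5.94 in the shoots and 3.19 in the root. FAMA (AT3G24140), which drives guard cell differentiation, read 5.0, 5.20 and 4.93 in the shoots and 2.5 in the root. SPCH (AT5G53210), which starts the lineage, read 4.82, 5.25 and 5.18 in the shoots and 3.26 in the root. These 3 regulators were among the 17 called lower.

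Of 26 cuticle and wax genes, 19 were lower and 1 was higher, with a median of -2.70. CER2 (AT4G24510), needed for elongation of wax precursors, read 8.94, 9.04 and 8.75 in the shoots and 3.49 in the root. CER6 (AT1G68530), a fatty acid elongase of wax synthesis, read 9.63, 9.10 and 9.06 in the shoots and 4.51 in the root. CER4 (AT4G33790), an alcohol-forming fatty acyl-CoA reductase, went the other way, with 2.36, 2.89 and 2.67 in the shoots and 5.29 in the root, 6.28-fold higher. Of 18 trichome genes, 5 were lower and 2 higher. ZFP8 (AT2G41940), a trichome-promoting zinc finger factor, read 7.2, 7.18 and 6.99 in the shoots and 3.22 in the root. ZFP5 (AT1G10480), which acts upstream in trichome and root hair formation, read 3.75, 4.35 and 4.22 in the shoots and 7.80 in the root, and SIM, an inhibitor of cyclin-dependent kinases, differed by 2.65. GL2, EGL3, GL3 and MYB23, regulators shared by the leaf and root epidermis, were not called, with differences of -0.17 to 0.15. After median centring of the arrays 8 of the 18 were lower, and 2 were higher.

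Of 29 leaf polarity and leaf growth genes, 13 were lower and 1 was higher, with a median of -0.78. The YABBY genes, which promote the lower leaf side and blade growth, were all lower: YAB5 (AT2G26580) read 7.29, 7.4 and 7.26 in the shoots and 2.31 in the root. YAB1 (AT2G45190) read 8.23, 8.31 and 8.50 in the shoots and 3.78 in the root. YAB3 and YAB2 differed by -4.03 and -3.22. The TCP factors in the list, which limit leaf growth, were lower too, from TCP10 at -3.42 to TCP17 at -1.49, as was AS1 at -1.38. The homeodomain-zipper genes PHB, PHV and REV and the KANADI genes KAN1 and KAN2, which also act in root and vascular patterning, were not called, with differences of -0.62 to 0.46. GRF1 (AT2G22840), a growth-regulating factor, was higher, with 4.30, 5.03 and 5.15 in the shoots and 6.11 in the root.

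Of 22 shoot meristem and organ boundary genes, 3 were lower, 2 were higher and 17 were not called, and the median difference was -0.30. LSH4 (AT3G23290), a boundary gene, read 6.05, 5.78 and 6.05 in the shoots and 4.15 in the root. KNAT6 (AT1G23380), a KNOX homeobox gene, read 4.92, 4.89 and 4.88 in the shoots and 6.04 in the root. STM read 4.51, 4.75 and 4.52 in the shoots and 3.64 in the root, while WUS and CLV3, which act in very few cells, read at most 3.18 in any shoot array. The last 2 lay below the median of all values on every array.

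Of 33 photoreceptor and light signalling genes, 15 were lower and 2 were higher, with a median of -0.73. PIF5 (AT3G59060), a growth-promoting bHLH factor degraded in light, read 8.64, 8.58 and 8.54 in the shoots and 3.91 in the root. The chloroplast-promoting factors GLK1 and GLK2 differed by -4.17 and -3.84. The phytochromes PHYA to PHYE were not called, with differences of -0.73 to 0.30. HY5 (AT5G11260), the bZIP factor that promotes light-grown development and moves from shoot to root, was higher, with 5.83, 5.61 and 5.92 in the shoots and 7.52 in the root. BBX21, a partner of HY5, was also higher, at 1.21, whereas the blue-light receptors CRY1 and PHOT2 were lower, at -2.38 and -3.08, and CRY2 differed by 0.09.

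The barrier tissues of the root gave the highest list medians. All 14 Casparian strip genes, which build the lignin band that seals the endodermal wall, were higher in the root, with a median of 4.04, and 12 of them by at least 4-fold. CASP1 (AT2G36100), a membrane scaffold of the strip, read 5.91, 5.90 and 5.56 in the shoots and 10.10 in the root, 19.8-fold higher. CASP5 (AT5G15290) read 3.47, 3.48 and 3.53 in the shoots and 7.82 in the root, with a shoot SD of 0.03 (n = 3). The peroxidases PER64 (AT5G42180) and PER3 (AT1G05260), of a family that polymerises lignin, had the largest differences, 4.72 and 4.76. The transcription factor MYB36, which switches on this programme, differed by 2.5, and the receptor GSO1 and the oxidase RBOHF by 1.38 and 1.13. The structural genes of the strip thus showed differences of at least 3.12, and the 3 signalling and regulatory genes smaller ones.

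Of 23 suberin genes, which form the lipid coat of older endodermis and periderm, 19 were higher and 1 was lower, with a median of 2.34. FAR5 (AT3G44550), a fatty acyl reductase, read 3.09, 3.13 and 3.42 in the shoots and 8.33 in the root, 34.8-fold higher. CYP86A1 (AT5G58860), which hydroxylates suberin fatty acids, read 3.58, 3.90 and 4.29 in the shoots and 8.45 in the root. GPAT5 (AT3G11430), an acyltransferase of suberin synthesis, read 3.26, 3.72 and 3.78 in the shoots and 7.24 in the root. All of the MYB factors in the list were higher, from MYB39 at 1.30 to MYB93 at 3.90. The exception was KCS20 (AT5G43760), a fatty acid elongase also used for leaf wax, with 9.83, 9.78 and 9.75 in the shoots and 7.94 in the root. ABCG1, ABCG16 and FAR1 were not called, at 0.13, 0.47 and 0.53.

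Of 34 root hair genes, 26 were higher in the root and 0 were lower, with a median of 2.28. The list ran from its regulators to the wall proteins of the growing tip. RHD6, the bHLH factor that starts hair formation, differed by 3.19, and RSL4 and RSL2, which set growth, by 2.12 and 2.27. Among their targets, EXPA7 (AT1G12560), an expansin that loosens the hair wall, read 3.59, 4.18 and 3.78 in the shoots and 8.11 in the root. ADF11, given above, was the most different member, and its relative ADF8 differed by 5.90. RHS13 and PRP3, genes of hair wall proteins, differed by 6.37 and 5.13. LRX1, a leucine-rich repeat extensin named as a hair marker, was not called, at 0.14, and its values stayed between 3.57 and 3.79 on all 4 arrays.

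Of 30 root meristem and root cap regulators, 9 were higher, 0 were lower and 21 were not called, with a median of 0.50. TMO7 (AT1G74500), a small bHLH protein downstream of auxin, read 1.54, 2.89 and 2.33 in the shoots and 7.81 in the root, 47.1-fold higher. UPB1 (AT2G47270), which limits the size of the root meristem, read 2.49, 2.61 and 2.11 in the shoots and 6.99 in the root. The root cap factors BRN1, BRN2 and SMB differed by 2.76, 1.59 and 1.19. PLT1, a stem cell factor, read 2.16, 2.2 and 2.4 in the shoots and 2.84 in the root, and WOX5, the quiescent centre gene, read 2.81, 2.98 and 2.27 in the shoots and 2.86 in the root. These values lie below the median of all values, 3.89, in every sample, and their differences, 0.59 and 0.18, were too small to be called. SCR and SHR, which pattern the ground tissue in both organs, differed by -0.36 and 0.69.

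Vascular genes were listed for xylem and for phloem. Of 25 xylem and secondary wall genes, 18 were higher in the root and 0 lower, with a median of 1.18, and 14 of the 25 were still called higher after median centring of the arrays. FRA8 (AT2G28110), a glycosyltransferase of xylan synthesis, read 3.91, 3.96 and 3.91 in the shoots and 6.88 in the root, 7.77-fold higher. XCP1 (AT4G35350), a protease of dying vessel cells, read 5.58, 5.51 and 5.56 in the shoots and 8.19 in the root. The secondary wall cellulose synthases CESA4, CESA7 and CESA8 differed by 1.15, 0.43 and 0.69. Of 27 phloem genes, 5 were lower, 2 were higher and 20 were not called, with a median of -0.02. SWEET11 (AT3G48740), a sucrose exporter of leaf phloem parenchyma, read 9.56, 9.63 and 9.44 in the shoots and 4.88 in the root, 25.4-fold lower. SUC2 (AT1G22710), the sucrose loader of companion cells, read 8.85, 8.99 and 8.86 in the shoots and 6.42 in the root. SWEET13 (AT5G50800), a relative of SWEET11, was higher, with 3.73, 3.78 and 3.67 in the shoots and 5.65 in the root. The sieve element regulators APL, NAC45, NAC86 and OPS were not called, at -0.06 to 0.68.

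Among nutrient genes, many root importers were higher in the root, and several transporters and enzymes of green tissue were lower. Of 43 iron and metal uptake genes, 23 were higher and 8 were lower, with a median of 1.52. Besides IRT1 and CYP82C4, the iron regulator FIT1 (AT2G28160) read 3.54, 3.75 and 3.89 in the shoots and 9.58 in the root, 57.9-fold higher. FRO2 (AT1G01580), the root ferric reductase, read 3.23, 3.34 and 3.32 in the shoots and 6.33 in the root. F6'H1 (AT3G13610), which makes the coumarin scopoletin, read 3.37, 4.23 and 4.04 in the shoots and 9.40 in the root. The nicotianamine synthases parted, with NAS1 and NAS2 at 3.33 and 5.22, and NAS3 and NAS4 at -2.23 and -1.11. FRO6 (AT5G49730), a ferric reductase of green tissue, had the largest deficit of the list, with 6.31, 5.85 and 5.78 in the shoots and 1.84 in the root. The ferritins FER1 and FER4, iron stores of plastids and mitochondria, were also lower, at -1.16 and -1.71.

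Of 35 nitrate and ammonium genes, 16 were higher and 5 lower, with a median of 0.87. NRT2:1 (AT1G08090), the main high-affinity nitrate importer, read 6.50, 8.04 and 8.31 in the shoots and 12.04 in the root, and its first shoot replicate was lower than the other two. Without that replicate its difference was 3.87 in place of 4.42. WR3, its partner protein, differed by 3.87. NRT1.5 (AT1G32450), which loads nitrate into the xylem, read 5.89, 6.24 and 6.64 in the shoots and 10.02 in the root. Ammonium transporter AMT1;3 (AT3G24300) read 6.49, 6.67 and 6.93 in the shoots and 9.85 in the root. NRT1.4 (AT2G26690), which stores nitrate in leaf petioles, was lower, with 8.03, 7.83 and 7.63 in the shoots and 4.68 in the root. Nitrate reductase NIA1 was higher at 2.52, and its paralogue NIA2 was not called, at -0.23. Asparagine synthetase ASN1, by contrast, was lower, at -2.53.

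Of 20 phosphate transport genes, 6 were higher and 2 lower. PHT1;2 (AT5G43370), a phosphate importer of the root surface with close paralogues, read 1.83, 0.96 and 1.85 in the shoots and 5.51 in the root. PHO1 (AT3G23430), which exports phosphate to the xylem, read 3.60, 3.88 and 4.08 in the shoots and 6.78 in the root. PHT2;1 (AT3G26570), the chloroplast phosphate transporter, read 10.31, 10.10 and 10.08 in the shoots and 6.23 in the root. The importer and the xylem exporter were thus higher in the root, and the chloroplast transporter was lower. Of 39 sulfate and glutathione genes, 8 were higher (20.5%) and 7 were lower (17.9%), with a median of 0.24. Of the most abundant 10% of loci, 27.01% were higher and 18.52% lower. No background matched for level was computed, so these shares are no result about this list. SULTR1;2 (AT1G78000), the main root sulfate importer, read 5.85, 5.93 and 6.09 in the shoots and 10.15 in the root, 18.3-fold higher. SULTR3;3 (AT1G23090), a relative, was lower, with 6.69, 6.92 and 6.56 in the shoots and 3.93 in the root. Both glutathione synthesis genes were not called, and GSH1 (AT4G23100), which encodes glutamate-cysteine ligase, read 8.45, 8.19 and 8.11 in the shoots and 8.14 in the root, inside the shoot range. The plastid glutathione reductase GR2 was lower, at -2.37, and the cytosolic GR1 was not called, at 0.49.

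Of 23 potassium, sodium and boron transport genes, 9 were higher and 2 were lower. NIP5;1 (AT4G10380), a boric acid channel of the root, read 5.01, 5.52 and 5.52 in the shoots and 8.20 in the root. The potassium importer AKT1 differed by 2.58, and SKOR, which releases potassium to the xylem, by 1.94. AKT2 (AT4G22200), a channel of the phloem, was lower, with 5.12, 4.16 and 4.25 in the shoots and 2.57 in the root. Of 35 aquaporins, 11 were higher and 2 lower, with a median of 0.31. TIP2;3 (AT5G47450), a vacuolar aquaporin, read 3.99, 4.46 and 4.97 in the shoots and 9.70 in the root, 37.3-fold higher. NLM1 (AT4G19030), a nodulin-26-like channel, read 4.50, 5.32 and 4.64 in the shoots and 9.91 in the root. PIP2;6 (AT2G39010), a plasma membrane aquaporin, was lower, with 10.50, 10.36 and 10.29 in the shoots and 5.79 in the root, 24.2-fold lower. The plasma membrane forms PIP1A, PIP1B, PIP1C and PIP2A were not called, at 0.37 to 0.85. After median centring 10 aquaporins were higher and 4 lower, and whether close paralogues share probes was not tested.

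Of 30 auxin synthesis and transport genes, 5 were higher (16.7%) and 7 lower (23.3%), with a median of -0.23. Over all loci the shares were 13.8% and 9.97%, so the share higher is no result about this list. TAA1 (AT1G70560), the aminotransferase of auxin synthesis, read 6.92, 7.26 and 6.90 in the shoots and 4.79 in the root. The efflux carriers PIN3, PIN4 and PIN7 were lower, at -2.10, -2.08 and -1.44, and PIN2, which acts in the root epidermis, was higher at 1.07. The list held 5 higher genes as deposited and 4 after median centring, which takes PIN2 below the limit. ABCB4 (AT2G47000), an auxin transporter of the root, read 3.61, 3.60 and 3.63 in the shoots and 6.41 in the root. The influx carrier LAX3 differed by 1.91, LAX1 by -1.90 and AUX1 by -0.33.

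Of 36 cytokinin genes, 11 were higher and 5 lower, with a median of 0.32. LOG7 (AT5G06300), which releases active cytokinin, read 5.26, 5.11 and 5.49 in the shoots and 9.08 in the root, whereas LOG1 (AT2G28305), of the same family, read 7.07, 6.76 and 6.81 in the shoots and 4.1 in the root. The exporter ABCG14, which sends cytokinin to the shoot, differed by 2.31, and the response regulators ARR3, ARR5, ARR6 and ARR8 were higher by 1.73 to 2.75. Of 17 strigolactone and karrikin genes, 2 were higher and 2 lower. D27 (AT1G03055), the isomerase that starts strigolactone synthesis, read 6.45, 6.03 and 5.95 in the shoots and 2.59 in the root. STH7 (AT4G39070), a B-box gene of the list, read 3.84, 4.49 and 4.34 in the shoots and 6.01 in the root. The strigolactone receptor AtD14 read 8.79, 8.63 and 8.65 in the shoots and 8.62 in the root, and CCD7 and CCD8, which make the precursor, were not called at -0.18 and -0.26.

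Genes of defence metabolism were called in both directions. Of 15 root triterpene and monoterpene genes, 7 were higher and 0 lower. The thalianol cluster was the clearest, with THAS1 (AT5G48010), the thalianol synthase, at 2.33, 2.38 and 2.62 in the shoots and 5.63 in the root. THAD (AT5G47990), a cytochrome P450 beside it, read 2.28, 2.54 and 3.13 in the shoots and 6.68 in the root, and THAH differed by 4.0. The marneral synthase MRN1 was not called and read between 2.76 and 2.95 on all 4 arrays. Of 21 ER body and myrosinase genes, 8 were higher and 3 lower. MLP-300B (AT3G16440), a myrosinase-binding protein-like gene, read 3.72, 3.97 and 3.62 in the shoots and 8.89 in the root. TGG1 (AT5G26000), the myrosinase of leaf guard cells and myrosin cells, read 10.04, 9.71 and 9.85 in the shoots and 3.01 in the root, 116-fold lower.

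Of 22 indolic glucosinolate and camalexin genes, 13 were higher and 0 lower, with a median of 1.24. CYP81F4 (AT4G37410), which modifies the indole ring, read 4.89, 5.77 and 6.23 in the shoots and 10.69 in the root, 33.4-fold higher, and the ring methyltransferase IGMT5 differed by 3.45. The core genes CYP83B1, CYP79B3 and SUR1 were not called, at 0.46 to 0.72. Of 22 aliphatic glucosinolate genes, 9 were higher and 5 lower. MAM3 (AT5G23020), which elongates methionine for long-chain products, read 5.23, 5.88 and 5.47 in the shoots and 9.19 in the root. CYP79F1 (AT1G16410) was lower, with 6.43, 4.43 and 5.06 in the shoots and 2.47 in the root, while its tandem paralogue CYP79F2 was higher, at 1.90. Without the first shoot replicate the difference of CYP79F1 was -2.27 in place of -2.83, and whether the paralogues share probes is not given in the sources used here.

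Of 34 sugar transport and sucrose cleavage genes, 6 were higher and 3 lower, and 25 were not called. CWINV1 (AT3G13790), a cell wall invertase, read 6.46, 6.28 and 6.36 in the shoots and 8.27 in the root. SWEET1 (AT1G21460), a glucose transporter, read 7.99, 8.35 and 8.24 in the shoots and 4.36 in the root, 14.3-fold lower. The list median was 0.08, and -0.04 after median centring, so its sign depends on the scaling. Of 33 genes listed as mitotic, which include replication genes such as MCM2 and PCNA1, 6 were higher and 0 lower. Their median was 0.51, and 4 were called higher after centring. The share higher, 18.2%, lay near the 13.8% of all loci and is no result about this list. CYCB1;4 (AT2G26760), a mitotic cyclin, read 4.59, 5.13 and 5.35 in the shoots and 6.36 in the root. Genes often used as references were mostly not called: of 18, 2 were higher and 1 lower, with a median of 0.48. GAPC1 (AT3G04120), a cytosolic glycolytic enzyme, read 10.89, 10.91 and 10.82 in the shoots and 12.12 in the root. TUA3 (AT5G19770), an alpha-tubulin, read 10.01, 10.17 and 10.13 in the shoots and 8.47 in the root. The 2992 loci with the highest mean level, the most abundant 10%, had a median difference of 0.47, so a positive value of that size was common among abundant genes on these arrays.

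In several enzyme families one member was lower and a relative higher in the root. In 24 pairs of related genes, each listed as a first and a second gene, the first was lower and the second higher in 13. Both were lower in 5, and both higher in 0. The pairs were chosen with earlier results of these data known, so these counts do not measure how common such a division is. The 24 pairs hold 45 distinct genes, since GLU1, PPC2 and FD3 each stand in 2 pairs that are among the 13. Of 4 pairs the first gene was lower and the second not called. Of 2, AHA1 with AHA2 and TUB5 with TUB1, the first gene was not called and the second higher. LFNR1, a leaf ferredoxin-NADP reductase that ends photosynthetic electron transport, differed by -4.84. Its counterpart RFNR1, which runs the reaction backward in non-green plastids, read 6.53, 6.47 and 6.33 in the shoots and 9.25 in the root. Ferredoxin showed the same division, with FD2 at -3.39 and FD3, which read 8.32, 8.19 and 8.31 in the shoots and 11.91 in the root. For the glutamate synthase step, the ferredoxin-dependent GLU1 differed by -3.85 and the NADH-dependent GLT1 by 1.34. Ferric reductase FRO6 at -4.14 stood against FRO2 at 3.03, and the phosphoenolpyruvate carboxylases PPC2 at -2.41 and PPC3 at 3.60. GL1 and WER, paired MYB regulators of the leaf and root epidermis, differed by -2.10 and 1.93. The 5 pairs lower in both members were CAT2 and CAT3, ASN2 and ASN1, GLK1 and GLK2, CHLI1 and CHLI2, and BCA1 and BCA3. Among the pairs not split in this way, the serine hydroxymethyltransferases SHM1 and SHM4 differed by -4.21 and -0.01.

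**Figure D4:**
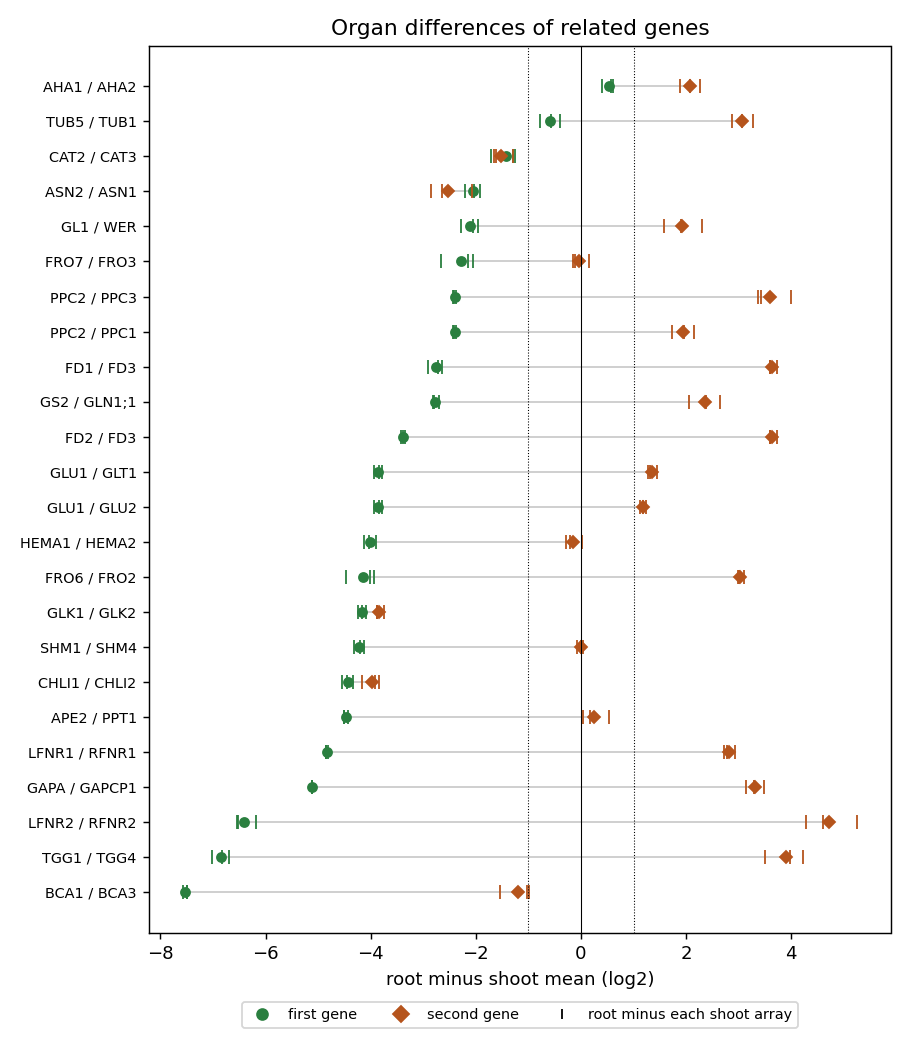
The horizontal axis is the root minus shoot mean difference in log2 units for 24 gene pairs. Circles stand for the first gene, diamonds for the second gene and small bars for the root minus each shoot array. In 13 pairs the circle lies below -1 and the diamond above 1, with LFNR2 and RFNR2 at -6.42 and 4.71.

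The other 4 arrays give an organ comparison in rml1, with 1 root and 3 shoot arrays that the wild type comparison does not use. Its shoot samples pooled 61, 65 and 108 shoots and its root sample 234 roots, at the same age and on the same medium. Whether all 8 arrays were normalised in 1 run is not stated in the labels. In rml1 1180 loci were higher in the root by at least 4-fold (3.94% of loci) and 1262 lower (4.22%). Of the 1630 loci 4-fold higher in the wild type root, 815 (50.0%) were also 4-fold higher in the rml1 root, which is 69.1% of the rml1 calls. Of the 1560 lower in the wild type root, 1044 (66.9%) were also 4-fold lower in rml1, or 82.7% of the rml1 calls. Regardless of size, 1575 of the 1630 had a positive and 1533 of the 1560 a negative organ difference in rml1. The share of all loci with each sign in rml1 was not computed, so these sign counts have no background beside them.

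The organ difference itself was compared between genotypes with limma's interaction term over 8 arrays. With 1 root array per genotype, that fit takes its spread from the shoot arrays and assumes roots vary like shoots. It called 4195 of 29920 loci at a Benjamini-Hochberg adjusted p under 0.05 (14.0%), 2344 with a more positive organ difference in the wild type and 1851 in rml1. Of the 1630 loci 4-fold higher in the wild type root, 728 were called, 688 of them with a smaller difference in rml1. Of the 1560 lower, 739 were called, 714 of them with a smaller difference in rml1. Because the loci were chosen for a large value in the wild type, their tendency to smaller values in rml1 is not a test of the genotype.

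For Casparian strip genes the median organ difference was 4.04 in the wild type and 1.73 in rml1, and 10 of 14 were called by the interaction, 9 more positive in the wild type and 1 in rml1. CASP5 differed by 4.33 in the wild type and 0.72 in rml1, an interaction of 3.61 ± 0.25 (limma, Benjamini-Hochberg adjusted p = 0.000743). For suberin genes the medians were 2.34 and 2.46, with 7 of 23 called, 4 more positive in the wild type and 3 in rml1. For xylem and secondary wall genes they were 1.18 and -0.14, with 15 of 25 called, all 15 more positive in the wild type. IRX9, a xylan synthesis gene, differed by 2.11 in the wild type and -0.28 in rml1, an interaction of 2.39 ± 0.17 (limma, Benjamini-Hochberg adjusted p = 0.00077). For photosystem and antenna genes they were -4.75 and -4.17, with 18 of 39 called, and for stomatal genes -1.88 and -1.99, with 1 of 20 called. For mitotic genes they were 0.51 and -0.32, with 16 of 33 called, all 16 more positive in the wild type. The interaction called 14.0% of all loci, 44.7% of loci 4-fold higher and 47.4% of loci 4-fold lower in the wild type root. The 18 of 39 photosystem and antenna genes, all 4-fold lower in the wild type root, lie near the last share. Their count is therefore no result about that list.

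**Figure D5:**
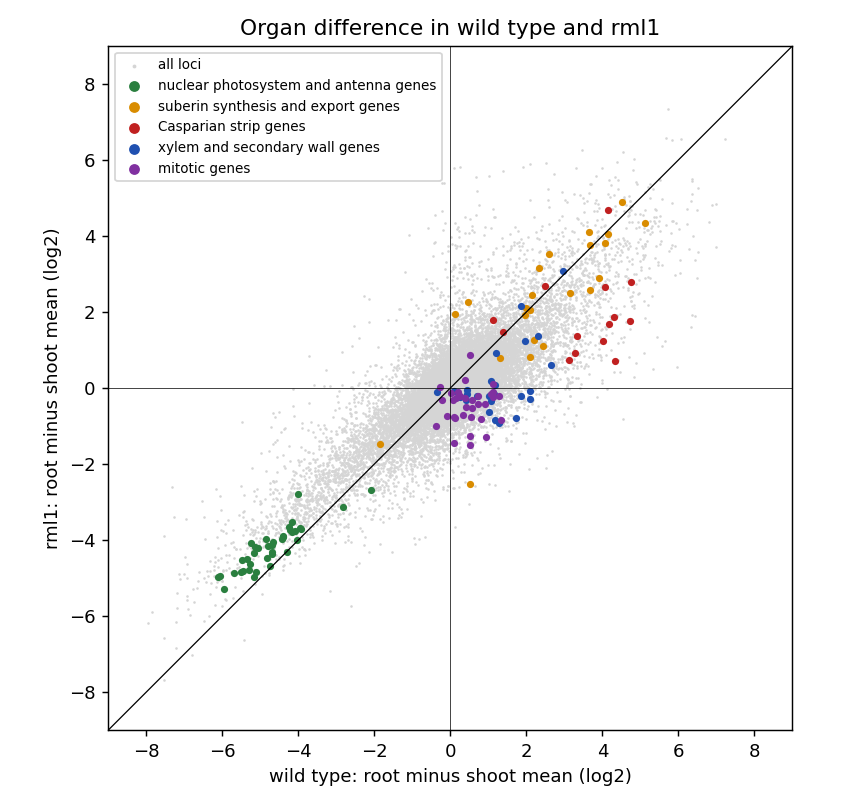
The horizontal axis is the root minus shoot difference in the wild type and the vertical axis that in rml1, in log2 units, with all loci in grey and 5 lists coloured. The Casparian strip median is 4.04 in the wild type and 1.73 in rml1, the xylem median 1.18 and -0.14, and the photosystem median -4.75 and -4.17.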

How the data were processed

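RNA of whole roots (1 array) and whole shoots (3 arrays) of wild type seedlings was measured on Affymetrix tiling arrays. The deposited values are log2 intensities that the authors made with RMA, per the submitters' processing notes. RMA is a method that corrects background, normalises arrays to a shared distribution and summarises probes, which can move values of organs that differ as widely as root and shoot. How probes were assigned to genes, and on which build, is not stated in the labels, and the RMA version is not listed. Coordinates and sequences are therefore not printed. The table's 30237 entries were averaged by the 9-character locus code, which gave 29920 loci, of which 29398 were named from RefSeq's gene table (assembly TAIR10.1). Of the entries, 85 had values identical to another entry.

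A difference is the root value minus the mean of the shoot arrays. A locus was called when the root lay outside the range of all 3 shoots and differed from their mean by at least 1 log2 unit. No filter on low values was used. The rule for named genes took the 10 largest called differences in each direction among loci above the median level in either organ, the largest called difference in each direction of each list, and any other member of the lists or pairs with its value. The members and lists were chosen with earlier results of these data known. The lists held 894 symbols, some of them for the same gene. These matched 847 distinct loci, of which 838 were measured. The difference in organ effect between genotypes was fitted with limma 3.58.1 in R 4.3.3 on all 8 arrays, with p-values adjusted by Benjamini-Hochberg over all loci. The calls and the fit were tested on simulated data. The labels call the shoot samples biological replicates of pooled plants, and p-values measure the spread between those samples. The number of arrays limits the precision, and depth has no meaning for arrays. Tables and figures were made with Python 3.11.15, numpy 2.4.6, pandas 2.3.3 and matplotlib 3.10.9. Alternatives were median centring, quantile normalisation, other size limits, the median of the shoots, each entry by itself, a filter on level, limma in place of the call rule, and leaving out each shoot replicate. No scan date, slide or other batch of the arrays is named in the labels, and none was tested.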

Additional observations from a re-analysis of the deposited data

Results flagged for a closer look

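Of the 69 genes named by the rule, 33 had an organ difference that differed between the wild type and rml1 by limma's interaction term (Benjamini-Hochberg adjusted p under 0.05). In 32 of them the difference was smaller in rml1, and TAA1 was the exception. The share called was 14.0% over all loci. It was 44.7% of loci 4-fold higher and 47.4% of loci 4-fold lower in the wild type root. The named genes lie near the latter shares, so their count is no result about them. The genes were chosen for large values in the wild type, and the spread comes from the shoot arrays alone, because each genotype has 1 root array. All values that follow are the wild type organ difference minus that of rml1, in log2 units.

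Among genes lower in the wild type root, the photosynthetic and chloroplast genes CA2 (-1.77), NdhL (-1.79), PETE1 (-1.13), FBA1 (-1.10), GDCH (-1.39), PORC (-1.47) and the plastid phosphate transporter PHT2;1 (-1.02) had a larger deficit in the wild type. The same held for XTH6 (-3.65), GASA6 (-1.95), AT1G66100 (-4.72), AT1G29660 (-3.89), the wax gene CER2 (-2.19), YAB5 (-1.06), PIF5 (-1.75) and the strigolactone gene D27 (-1.67). Transporters and a reductase of this direction were NRT1.4 (-1.72), PIP2;6 (-1.70) and FRO6 (-3.67). FRO6 read 6.31, 5.85 and 5.78 in the wild type shoots and 1.84 in the root, and its organ difference in rml1 was -0.47. TAA1 (1.12) was lower in the root by more in rml1 than in the wild type.

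Among genes higher in the wild type root, the iron genes IRT1 (2.04) and CYP82C4 (2.95), the phosphate importer PHT1;2 (3.23), the aquaporin TIP2;3 (3.47) and the sugar transporter SWEET13 (3.11) had a larger excess in the wild type. So did AT4G22666 (3.26), AT1G52060 (3.05), the peroxidase PER3 (1.97), the wax gene CER4 (2.47), MAM3 (1.88), HY5 (1.03), LOG7 (1.05), STH7 (1.84) and the mitotic cyclin CYCB1;4 (2.18). The organ difference of SWEET13 was 1.92 in the wild type and -1.19 in rml1, and that of CYCB1;4 was 1.34 and -0.85.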

How the results depend on the processing

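At a minimum difference of 2 log2 units 1630 loci were higher and 1560 lower in the root, and at 0.5 units 7481 and 5062. With limma in place of the call rule, which assumes that the lone root array varies like the shoots, 6568 were higher and 4090 lower on the 4 wild type arrays, and 7382 and 4527 on all 8 arrays. Median centring gave 3617 higher and 3343 lower loci, so the share of calls that were higher went from 58.1% to 52.0%, and it shifted every difference by -0.13. Quantile normalisation gave 3668 and 3229. Requiring 4 times the shoot range left 2966 and 2330. Leaving out each shoot replicate gave 4113 to 4183 higher and 2977 to 3049 lower loci, and 2972 to 4046 loci in the interaction. For the interaction, quantile normalisation of the 8 arrays gave 4391 loci and limma's trend and robust options 4697, of 29920 tested. A filter on level gave 4421 of only 14960 tested, a larger share than the 4195 of 29920 in the main fit. Over the 69 named genes and 6 alternatives, 375 of 414 differences moved by less than 1 SD of the shoot arrays, 39 moved by more, and 0 changed sign. With 3 shoot arrays, leaving out a replicate or taking their median cannot move a difference by 1 SD. Only median centring and quantile normalisation could do so. The genes were picked for called differences, so the unchanged signs are no check of robustness. The largest move was 1.00, of MLP328 without shoot replicate 1. Of the 32 list medians, 2 changed sign, for phloem genes without shoot replicate 3 (from -0.02 to 0.0044) and for sugar transport genes under median centring (from 0.08 to -0.04). No paired analysis was possible because the root array carries no replicate number shared with a shoot array. Signal over background was not among the values used, so no locus was set aside as undetected.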

Other observations

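Calls in the same direction lay side by side at several places in the genome. Runs were taken as at least 4 measured protein-coding loci that followed each other by start position on a chromosome. Unmeasured genes may lie between them. By this rule 38 runs of loci higher in the root (164 loci) and 8 runs of lower loci (33 loci) were found. In all, 4129 loci were called higher and 2983 lower. The number of runs that so many calls would give in random order was not computed, so the counts are no result about gene position. One of the 2 longest, with 6 loci, held the serine carboxypeptidase-like genes scpl6, scpl3, scpl5 and scpl4 beside KTI1, a protease inhibitor gene. The scpl3 gene differed by 4.37 and KTI1 by 3.24. A run of 5 loci held the CLE4, CLE5, CLE6 and CLE7 genes of small signalling peptides, with CLE6 at 4.30. In the root CLE4, CLE5 and CLE7 read only 3.90, 3.19 and 2.75, against a median of all values of 3.89. Among the lower runs, AT1G29420, SAUR63, AT1G29450 and AT1G29460 differed by -3.56, -5.92, -4.64 and -4.11, and SAUR63 belongs to a family of small auxin-responsive genes. Whether neighbouring relatives share probes was not tested.

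A few loci lay below the lower quartile of all values on every array of one organ and above the upper quartile in the other. In the root direction there were 9, among them BGLU22, scpl3, CYP82C4 and the ferric reductase gene FRO5, which read 1.37, 2.24 and 1.82 in the shoots and 7.24 in the root. In the shoot direction there were 14, among them SAUR63, NdhL, YAB5, CYP706A6 and PnsB3, a subunit of the chloroplast NAD(P)H dehydrogenase complex. PnsB3 read 8.66, 8.41 and 8.32 in the shoots and 2.3 in the root.

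At 12 loci the organ difference was at least 4-fold in the wild type and at least 2-fold the other way in rml1. This choice fixes a large difference between the genotypes in advance, so the interaction term adds no support for these loci. The flavonol genes F3H and FLS1 were higher in the wild type root, at 2.28 and 2.68, and lower in the rml1 root, at -1.85 and -1.66. MYB10, a regulator of iron-deficiency genes, differed by 2.54 in the wild type and -1.75 in rml1. The asparagine synthetase gene ASN1 differed by -2.53 and 1.64, the phosphate-induced gene PHI-1 by -2.28 and 2.42, and the wall enzyme gene XTH24 by -2.14 and 2.34. These loci were found by their values and rest on 1 root array of each genotype.

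The shoot replicates differed in how often each was the lowest at the loci that separate the organs. Of the 1630 loci 4-fold higher in the root, shoot replicate 1 was the lowest of the 3 shoots at 931 (57.1%), against 35.1% of all loci. Of the 1560 loci 4-fold lower, shoot replicate 3 was the lowest at 731 (46.9%), against 34.9% of all loci.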
